A study of Mus musculus with 2 samples.

Results

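The genes described here are those of the interleukin-4 receptor, its kinases and its transcription factor STAT6, together with a set of genes known to be induced by interleukin-4 in lymphocytes. They were taken by name from the arrays' gene annotation: Il4ra, Il2rg, Jak1, Jak3 and Stat6 for the signalling chain, and Fcer2a, Il4i1, Nfil3, Pim1 and Cd38 for the induced genes. All 17 probes carrying these 10 names were used, out of 41174 probes with 27962 gene names. Of the 10 genes, 4 had 1 probe, 5 had 2 probes and 1 had 3 probes.

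The arrays compared RNA of mouse B cells transduced with a retroviral miR-181b-GFP vector with RNA of B cells transduced with the control-GFP vector. Both were primary splenic B cells of C57BL/6 mice, obtained by removing CD43-bearing cells and cultured in 25 µg/ml lipopolysaccharide and 10 ng/ml interleukin-4. Both were exposed to virus for 20 h with 8 µg/ml polybrene and sorted for green fluorescence at 2 days, a time that the labels count in one place from transduction and in another from the start of culture. There was 1 biological sample per vector, hybridised on 2 two-colour arrays with exchanged dyes: on array 1 the miR-181b RNA carried Cy5 and the control RNA Cy3, and on array 2 the miR-181b RNA carried Cy3 and the control RNA Cy5. The age, sex and number of mice are not given in the labels. Interleukin-4 was present in every culture, so the arrays hold no comparison with cells that lacked it.

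Interleukin-4 binds the alpha chain of its receptor, which on lymphocytes pairs with the common gamma chain. The kinases JAK1 and JAK3, bound to these chains, phosphorylate the receptor and then STAT6, which enters the nucleus and activates genes with its recognition motif. In B cells the pathway is known for raising CD23 and MHC class II and for directing antibody class switching to IgG1 and IgE. MicroRNAs of the miR-181 family lower mRNAs or proteins through sites that pair with bases 2 to 8, the seed.

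The mature strand is shown because it is the molecule that separated the groups. RefSeq (GRCm38.p6) gives the same mature sequence for Mir181b-1, at chr1:137966650-137966673 on the plus strand, and for Mir181b-2, at chr2:38853845-38853868 on the plus strand. The seed is in capitals.
miR-181b: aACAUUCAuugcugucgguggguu
No probe on the arrays was named for miR-181, so the level of the microRNA itself was not analysed here. The DNA letters that pair with the seed, TGAATGT, stood in 0 of the 17 probe sequences of these genes and in 1.06% of all measured probe sequences (273 of 25787). A 60-base probe covers a small part of an mRNA, so this count says nothing of sites elsewhere in the transcripts.

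Several of the genes were read by more than 1 probe, each a 60-base stretch that captures its own part of the mRNA. Of the 17 probe sequences 4 are shown as examples, as deposited with the scanner files: both of Jak3 and 1 each of Stat6 and Pim1. Probes of the same gene also differed in mean ratio in Jak1, Nfil3 and Cd38, whose sequences are not shown.
Jak3 A_51_P355360: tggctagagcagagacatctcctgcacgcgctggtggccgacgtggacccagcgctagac
Jak3 A_52_P512847: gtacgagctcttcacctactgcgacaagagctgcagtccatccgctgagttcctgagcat
Stat6 A_52_P132761: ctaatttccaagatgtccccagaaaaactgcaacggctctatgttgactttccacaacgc
Pim1 A_52_P530291: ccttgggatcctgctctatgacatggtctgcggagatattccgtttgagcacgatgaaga

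No member gene passed 1.5-fold in either direction between miR-181b and control B cells. Of 17 probes, 0 were higher and 0 were lower by the rule that the mean pass 1.5-fold and the arrays share its sign, which 0.714% (184 higher) and 0.43% (111 lower) of the 25787 measured probes met. By the stricter rule, a mean past 2-fold with each array past 1.5-fold, the members' counts were also 0 and 0, against 0.0155% (4 higher) and 0.0776% (20 lower) of all. All 17 were measured, meaning that each array showed both RNAs well above background. Mean log2 ratios of miR-181b over control ran from -0.38 for a probe of Nfil3, a transcription factor induced by interleukin-4, to 0.41 for Il2rg, the common gamma chain. Their median was 0.06, against -0.0002 over all measured probes, and it was -0.0043 when the arrays were scaled to each other. With 1 sample per vector no test between the vectors exists, and the arrays show only how far the same RNA pair differed between hybridisations. The values after ± below are the distance of each array from the mean of both, and hold no spread between cultures. Over all measured probes Pearson's r between the ratios of arrays 1 and 2 was 0.005, and 0.146 over those not saturated. Fewer cells of a type and less RNA per cell cannot be told apart in such RNA.

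The arrays disagreed in sign for most of these probes. Of 17 probes, 0 were higher in miR-181b cells on both arrays and 2 were lower on both, against 23.8% higher and 26.2% lower on both among all measured probes. For 14 of the 17 the brighter signal followed the Cy3 dye on both arrays, so that the ratio was negative on array 1 and positive on array 2. That pattern was seen in 25.5% of all measured probes, and in 25.6% and 28.7% of those in the ninth and the tenth decile by intensity, the brightest, where most of the member probes lay. The opposite pattern, brighter in Cy5 on both arrays, was seen in 1 of 17 member probes and in 24.5% of all. The median ratio of the members was -0.18 on array 1 and 0.17 on array 2. Their median distance from the mean was 0.22, with a range of 0.02 to 0.61. Over all measured probes the median distance was 0.10, and it was 0.11 and 0.13 in the ninth and the tenth decile. In 2 of 17 member probes the mean ratio was larger in size than this distance, against 50% of all measured probes (12894). With 2 arrays this occurs exactly where both share a sign, so it restates the sign counts above and adds no further evidence.

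**Figure D1:**
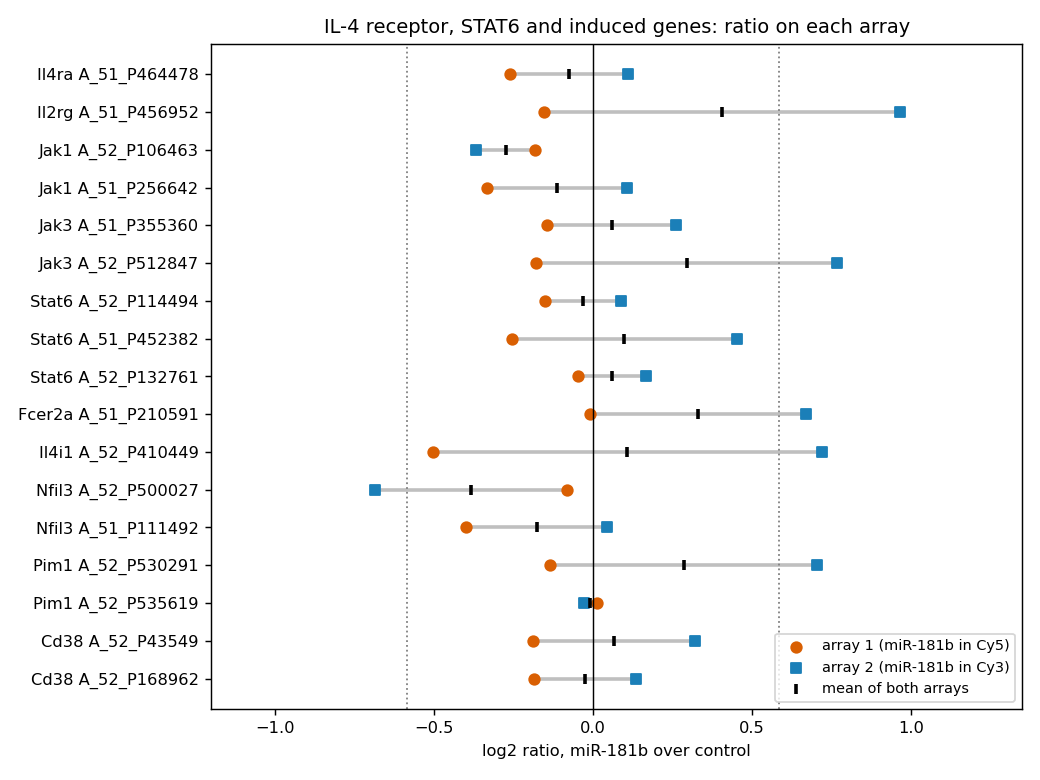
Log2 ratio of miR-181b over control (x axis) for each of the 17 probes (rows) on array 1 (circles, miR-181b RNA in Cy5) and array 2 (squares, miR-181b RNA in Cy3), with the mean as a bar and 1.5-fold as dotted lines. For 14 probes the circle lies below 0 and the square above 0, and every mean lies between -0.38 and 0.41.

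**Figure D2:**
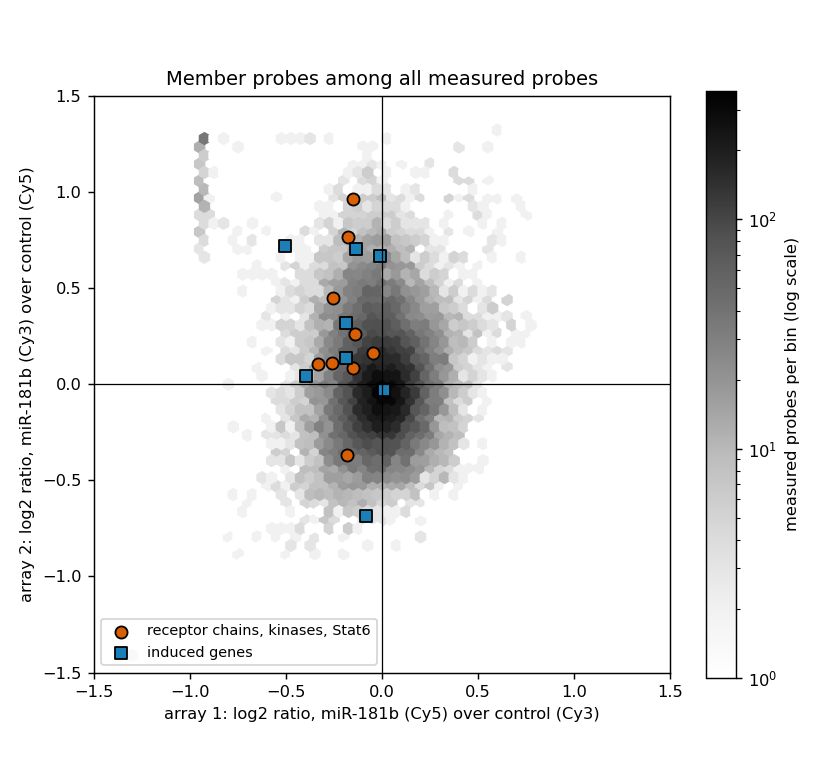
Log2 ratio on array 1 (x axis) against array 2 (y axis) for the members (coloured) over all 25787 measured probes (grey bins, log scale of probes per bin). Of the members 14 lie at the upper left, where the Cy3 signal was brighter on both arrays. The strip near -0.9 on array 1 holds very bright probes, many of them saturated.

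The ligand-binding chain Il4ra had log2 intensities of 12.90 and 13.13 in miR-181b RNA on arrays 1 and 2, against 13.16 and 13.02 in control RNA. The control was the brighter RNA on array 1 and the miR-181b RNA on array 2. Its log2 ratio was therefore -0.26 on array 1 and 0.11 on array 2, with a mean of -0.07 ± 0.19. The difference between the vectors was thus smaller than the distance of the arrays from their mean.

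The common gamma chain Il2rg, which serves several cytokine receptors, had intensities of 13.11 and 13.61 in miR-181b RNA and 13.27 and 12.64 in control RNA. Its mean ratio of 0.41 ± 0.56, a 1.32-fold level in miR-181b cells, was the highest among the members. It came from array 2, where the ratio was 0.96, while array 1 gave -0.15.

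JAK1, the kinase bound to the alpha chain, was read by 2 probes. The brighter, A_52_P106463, had 14.27 and 14.13 in miR-181b RNA and 14.45 and 14.50 in control RNA. Both miR-181b values lay below both control values, and the log2 ratios of -0.18 and -0.37 gave a mean of -0.27 ± 0.09, or 0.827-fold. The other Jak1 probe, A_51_P256642, had 14.07 and 14.23 in miR-181b RNA and 14.40 and 14.12 in control RNA. Here the arrays opposed each other, at -0.33 and 0.11, and the mean was -0.11 ± 0.22.

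JAK3, the kinase bound to the common gamma chain, also had 2 probes, both shown above. Probe A_51_P355360 had 12.47 and 12.62 in miR-181b RNA against 12.62 and 12.36 in control RNA, for a mean ratio of 0.06 ± 0.20. Probe A_52_P512847 had 11.69 and 12.16 in miR-181b RNA against 11.87 and 11.39 in control RNA, for a mean of 0.29 ± 0.47. The probes were close on array 1 (-0.14 and -0.18) and parted on array 2, at 0.26 and 0.77. Their difference in mean ratio, 0.24, thus came from 1 hybridisation.

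Stat6, the transcription factor of the pathway, was read by 3 probes of very different brightness. The brightest, A_52_P114494, had 12.11 and 12.20 in miR-181b RNA and 12.26 and 12.11 in control RNA, a mean ratio of -0.03 ± 0.12. The dimmest, A_52_P132761, whose sequence is shown above, had 6.97 and 7.05 in miR-181b RNA and 7.02 and 6.89 in control RNA, a mean of 0.06 ± 0.11. Both means were smaller than the distance between arrays, and they differed in sign.

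The remaining Stat6 probe, A_51_P452382, was printed in 10 spots on each array and so shows the spread between spots within a hybridisation. Its mean intensities were 10.16 and 10.42 in miR-181b RNA and 10.42 and 9.96 in control RNA. On array 1 the 10 spots had ratios from -0.34 to -0.16 with a median of -0.26 and an SD of 0.054, and on array 2 from 0.36 to 0.51 with a median of 0.45 and an SD of 0.042. The spots of the arrays did not overlap and lay on opposite sides of 0, so that the difference between the arrays was far larger than the spread between spots of an array. Among the 137 probes with 5 or more spots the median SD was 0.050 on array 1 and 0.041 on array 2. The mean of the Stat6 probe was 0.10 ± 0.35.

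**Figure D3:**
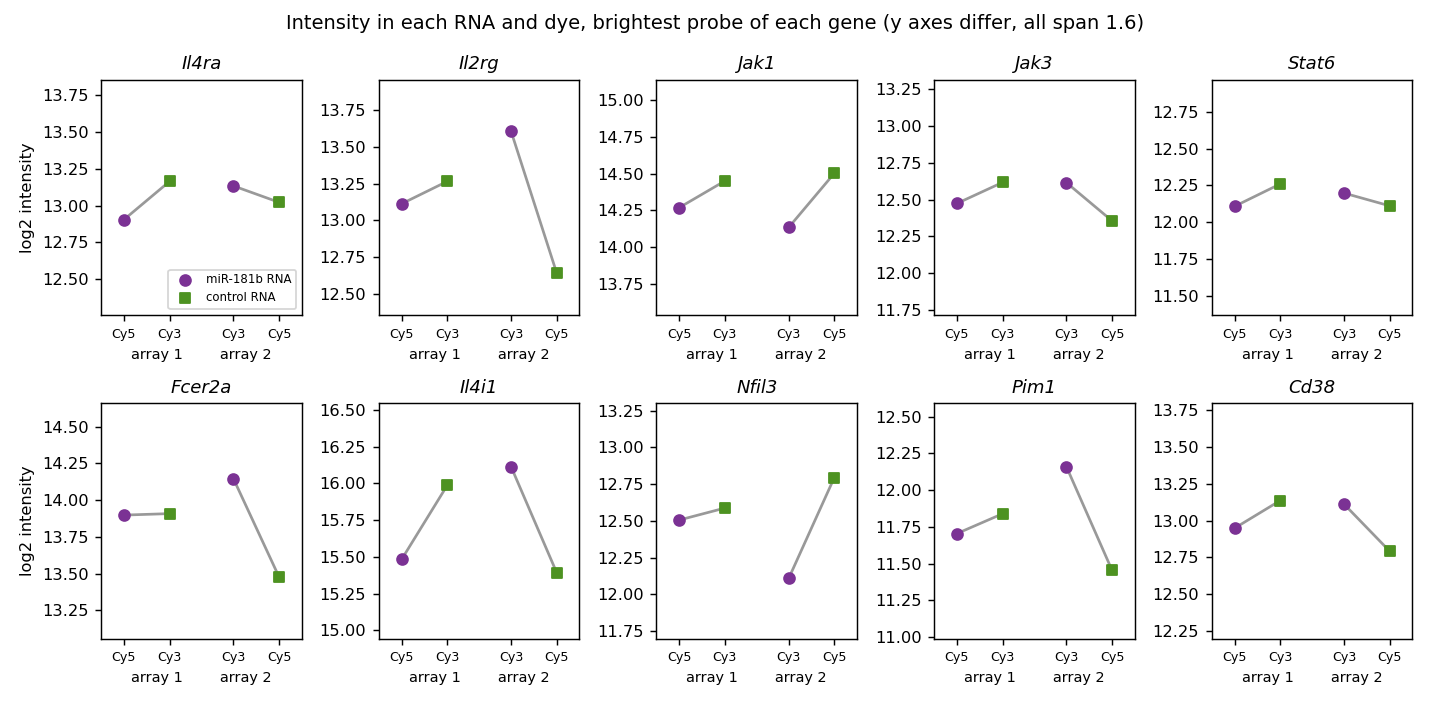
Log2 intensity (y axis, each panel spanning 1.6 units at its own level) of the brightest probe of each gene in miR-181b RNA (circles) and control RNA (squares), with the dye of each value below it. In Jak1 and Nfil3 the control RNA is the brighter on both arrays, and in the other 8 panels the RNA in Cy3 is the brighter on both arrays.

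Among the induced genes, Fcer2a encodes CD23, the low-affinity IgE receptor that interleukin-4 raises on B cells. It had 13.90 and 14.15 in miR-181b RNA and 13.91 and 13.48 in control RNA. The RNAs were nearly equal on array 1, at -0.01, and apart by 0.67 on array 2. The mean ratio was 0.33 ± 0.34, or 1.26-fold, and was smaller in size than the distance of the arrays from it.

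Fcer2a was also the 1 gene of the 10 whose RefSeq promoter window (250 bases before to 50 after the start) held the STAT6-type motif TTCNNNNGAA, read on both strands. It stood in 1 of the 13 windows of the members and in 6.95% of all 32851 windows. The motif is in capitals in the 30 bases at chr8:3691010-3691039 (GRCm38.p6, minus strand), centred 163 bases before the start.
Fcer2a: agagggtgaaTTCCCAAGAAgggccaggag
The shorter motif TTCNNNGAA, the form read by other STAT proteins, was in 0 windows of the members and in 8.3% of all windows. A match describes letters only, and motifs outside these windows were not searched.

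Il4i1 encodes an amino acid oxidase that was named for its induction by interleukin-4. Its probe was saturated in Cy5 on both arrays, and its intensities were 15.48 and 16.11 in miR-181b RNA and 15.99 and 15.39 in control RNA. The miR-181b signal of array 1 and the control signal of array 2 are thus lower limits. The ratios of -0.50 and 0.72 had a mean of 0.11 ± 0.61, the widest distance between arrays among the members. Without this probe, 13 of 16 members were brighter in Cy3 on both arrays and the median of the mean ratios was 0.02.

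Nfil3 encodes a basic leucine zipper factor that supports IgE switching. Probe A_52_P500027 had 12.51 and 12.11 in miR-181b RNA and 12.59 and 12.79 in control RNA. Both miR-181b values were below both control values, but the ratio was -0.08 on array 1 and -0.69 on array 2. The mean of -0.38 ± 0.30, or 0.766-fold, was the lowest of the 17 and lay at the 2.5 percentile of probes of similar brightness. Probe A_51_P111492 had 11.88 and 12.05 in miR-181b RNA and 12.28 and 12.00 in control RNA, for ratios of -0.40 and 0.04 and a mean of -0.18 ± 0.22. The probes of Nfil3 shared a negative mean, and the array that gave the lower value was not the same for both.

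Pim1 encodes a serine and threonine kinase that cytokine receptors induce through STAT proteins. Probe A_52_P530291, shown above, had 11.70 and 12.16 in miR-181b RNA and 11.84 and 11.46 in control RNA, for a mean ratio of 0.28 ± 0.42. The dim probe A_52_P535619 had 7.41 and 7.58 in miR-181b RNA and 7.40 and 7.61 in control RNA. Its ratios of 0.01 and -0.03 gave the smallest distance between arrays among the members (mean -0.01 ± 0.02), and it was the 1 probe brighter in Cy5 on both arrays.

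Cd38 encodes a surface enzyme of nucleotide metabolism that is present on mouse B cells. Probe A_52_P43549 had 12.95 and 13.11 in miR-181b RNA and 13.14 and 12.79 in control RNA, a mean ratio of 0.07 ± 0.25. Probe A_52_P168962 had 9.51 and 9.71 in miR-181b RNA and 9.70 and 9.58 in control RNA, a mean of -0.03 ± 0.16. The means differed in sign, as they did for Stat6 and Pim1, and each was smaller than its distance between arrays.

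The signalling genes and the induced genes are given side by side, without a test of their difference. Of the 9 signalling probes 8 were brighter in Cy3 on both arrays and 1 was lower in miR-181b RNA on both, and of the 8 probes of induced genes 6 and 1 did so. The median of the mean ratios was 0.06 in the signalling genes and 0.03 in the induced genes, and the median distance from the mean was 0.20 and 0.28.

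The probes lower on both arrays, A_52_P106463 of Jak1 and A_52_P500027 of Nfil3, shared a base composition. Both had 35% G and C, the lowest of the 17 probes. Over all measured probes the ratio on array 2 varied with base composition, with a median of -0.08 in the 5064 probes of at most 36% G and C and of 0.05 in the 5811 probes over 48%. Across probes Pearson's r between base composition and ratio was 0.006 on array 1 and 0.20 on array 2. Probes are not independent replicates, and the part of base composition in these values was not tested.

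Genes around the pathway were taken from 3 lists, each gene by its brightest measured probe. For their counts on both arrays, the shares of all measured probes are 23.8% higher and 26.2% lower. Relatives and adapters of the receptor, kinases and STAT6 had 11 measured genes of 14 listed, with 0 higher and 7 lower on both arrays and a median ratio of -0.11. Brakes and cofactors of STAT6 had 16 measured of 16 listed, with 0 higher and 8 lower on both and a median of -0.09. Other genes induced by interleukin-4 had 16 measured of 18 listed, with 5 higher and 3 lower on both and a median of 0.05. That median became -0.03 when the arrays were scaled to each other. The listed Ighg1 and Ighe had no probe under those names, and other names for them were not searched. Over the 3 lists 1 gene of 43 was higher past 1.5-fold and 0 were lower, against the 0.714% and 0.43% of all measured probes given above.

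That gene was Slc3a2, the heavy chain of the CD98 amino acid transporter. It had 14.82 and 15.00 in miR-181b RNA and 14.33 and 14.09 in control RNA, for ratios of 0.49 and 0.91 and a mean of 0.70 ± 0.21. Its other probe had a mean of 0.36. Among genes of that list with the same sign on both arrays, Ccl22, a chemokine that attracts CCR4-bearing T cells, was the next highest. It had 7.47 and 7.47 in miR-181b RNA, 7.23 and 7.09 in control RNA and a mean ratio of 0.31 ± 0.07. Its probe was dim, in decile 3 by intensity.

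Batf, a basic leucine zipper factor needed for class switching, was among the 3 induced genes of this list that were lower on both arrays. It had 14.86 and 14.83 in miR-181b RNA and 14.96 and 14.96 in control RNA, a mean ratio of -0.11 ± 0.02.

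The feedback inhibitors of cytokine signalling Cish and Socs3 were the lowest of the brakes. Cish had 10.30 and 10.30 in miR-181b RNA and 10.77 and 10.78 in control RNA, a mean ratio of -0.48 ± 0.01. Socs3 had 13.66 and 13.60 in miR-181b RNA and 14.15 and 14.02 in control RNA, a mean of -0.45 ± 0.04. Socs1, a relative that binds JAK kinases directly, had -0.004 ± 0.005. Cish and Socs3 were named because they were the lowest, and the ± covers only 2 hybridisations of 1 RNA pair.

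Stat3 and Stat5b were the lowest of the relatives. Stat3 had 13.58 and 13.67 in miR-181b RNA and 14.12 and 14.07 in control RNA, a mean ratio of -0.47 ± 0.07, but its other probe had -0.03. Stat5b had -0.34 ± 0.25, and another of its 3 probes had 0.11. None of these genes reached 1.5-fold, and for Stat3 and Stat5b the value depends on the probe.

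**Figure D4:**
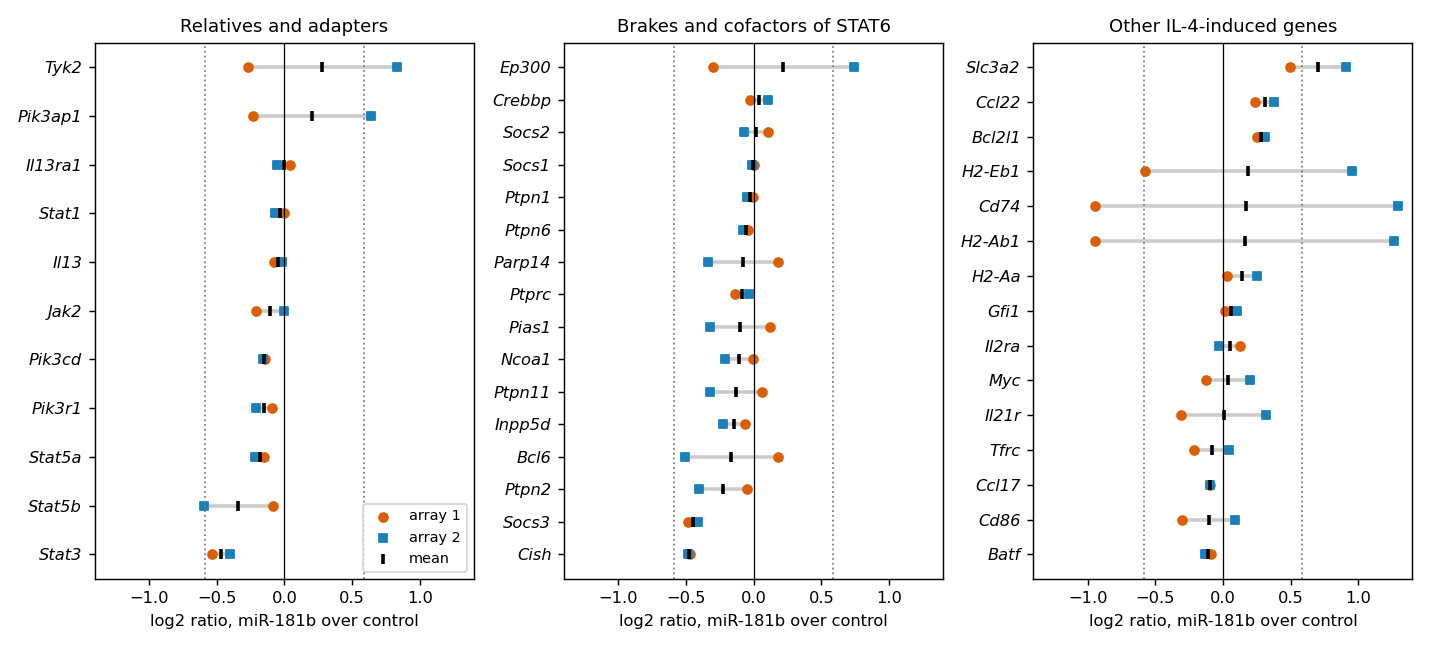
Log2 ratio of miR-181b over control (x axis) on array 1 (circles), array 2 (squares) and their mean (bars) for the brightest measured probe of genes of the 3 lists, with 1.5-fold as dotted lines. Slc3a2 is the 1 gene whose mean passes 1.5-fold while both arrays have its sign. Cd74 and H2-Ab1, whose signals were saturated, lie farthest apart between arrays.

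The labelled cell type was checked with fixed markers. Of all measured probes, 23.8% were higher, 26.2% lower and 25.5% brighter in Cy3 on both arrays. The last share was 28.7% in the tenth decile by intensity. All 7 B cell markers were measured, with a median log2 intensity of 14.84 in miR-181b RNA and 14.67 in control RNA. Of the 7, 6 were brighter in Cy3 on both arrays, among them Cd79b and Ms4a1, whose signals were saturated, and the median ratio was -0.33 on array 1 and 0.77 on array 2. Cd79a, a chain of the B cell receptor, was higher on both, at 0.16 and 1.56. The 4 plasma cell markers had a median ratio of 0.28, and 3 were higher on both arrays: Sdc1 at 0.15 ± 0.06, Prdm1 at 0.19 ± 0.09 and Irf4 at 0.36 ± 0.19. The other, Igj, was saturated. Among macrophage markers Lyz2 was lower on both arrays, at -0.49 ± 0.07, and 2 of the 6 measured were lower and 2 higher on both. Of markers of other cells, 7 of 8 were measured for T cells (median ratio 0.07), 6 of 7 for macrophages and monocytes (0.02), 3 of 5 for natural killer cells (0.12), 3 of 4 for dendritic cells (-0.03) and 3 of 6 for granulocytes, mast cells and basophils (-0.13). Cd8a, Mrc1, Ncr1, Gzma, Siglech, S100a8, Mcpt8 and Cpa3 were not measured by this rule. Median log2 intensities in miR-181b and control RNA were 12.74 and 12.46 for plasma cell markers and 7.69 and 7.44 for T cell markers. For macrophages and monocytes they were 7.99 and 8.09, for natural killer cells 7.16 and 7.04 and for dendritic cells 8.21 and 8.23. For granulocytes, mast cells and basophils they were 7.50 and 7.63. Single markers were brighter, such as Cd2 at 12.30 and 12.41 in miR-181b RNA. The part of these other cell types in the ratios above was not tested.

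Of the alternatives that kept both arrays, the one that replaced loess, which removes the intensity trend between dyes, with centring of each array on its median moved the most member ratios. With median centring alone 15 of 17 mean ratios were negative and ran from -0.76 to 0.05. The 2 probes lower on both arrays passed 1.5-fold: Jak1 A_52_P106463 at -0.69 and Nfil3 A_52_P500027 at -0.76. Of all 25787 measured probes, 1131 were lower and 10 higher past 1.5-fold with this centring. The median of the members was then -0.32, against -0.18 over all measured probes and -0.37 and -0.40 in the ninth and the tenth decile by intensity. With the scanner's own processed signals, a smaller offset or scaling between arrays, 0 of 17 passed, and the mean of Pim1 A_52_P535619 with processed signals (0.04) and of Il4i1 with scaling (-0.02) changed sign.

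**Figure D5:**
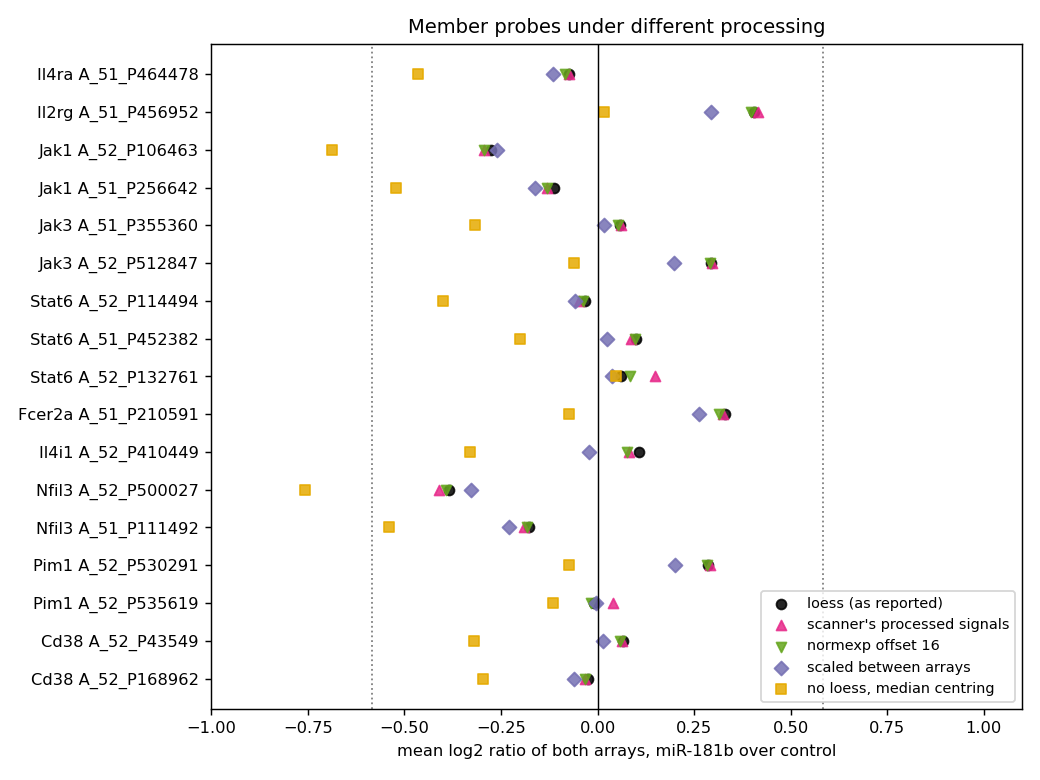
Mean log2 ratio of miR-181b over control (x axis) of each of the 17 probes (rows) under 5 ways of processing, with 1.5-fold as dotted lines. The squares, with median centring in place of loess, lie to the left of the other marks for nearly every probe, and those of Jak1 A_52_P106463 and Nfil3 A_52_P500027 pass the line.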

How the data were processed

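RNA of miR-181b and control B cells was compared on 2 Agilent arrays with exchanged dyes, a technical repeat of 1 RNA pair counted as 1 replicate. RNA integrity numbers were 9.7 to 9.8 and 2 µg was labelled, per the labels' protocols. The deposited scanner files were made with Agilent Feature Extraction 9.1.3.1, per the file headers. Used from them were the uncorrected spot means and local background medians, each an intensity per dye. The deposited files also give background-subtracted and dye-normalised intensity values and their log10 ratio of Cy5 over Cy3, per the file headers, which served as an alternative. Flags for saturation, outliers and signal well above background were used as deposited.

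Background correction (normexp, offset 50) and loess within arrays, where controls had weight 0, were run with limma 3.58.1 in R 4.3.3. Outlier spots were left out (7 and 21), saturated spots were kept, and spots of a probe were averaged. Ratios were turned to miR-181b over control. Intensities of each RNA are after loess and Aquantile scaling. Each array had 43379 spots that were not controls, of which 64.7% to 67.7% were well above background in a channel. Precision is limited by the number of arrays. Only the step from spot intensities to loess ratios was tested on simulated arrays. These had a constant dye shift and a dye effect per probe, but no simulated intensity trend between dyes and no saturation.

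To be called higher or lower, a probe had to pass 1.5-fold on the mean, with both arrays on that side of 0, and by a stricter rule 2-fold on the mean with each array past 1.5-fold. Both arrays shared a slide and a scan. All probes of the 10 genes are named. From the other lists the text names genes past 1.5-fold and the 2 highest and 2 lowest with the same sign on both arrays. The result of 1 gene of the other lists is not reported here, though the lists' counts and medians include it. Socs1, Cd74, H2-Ab1 and several cell type markers were named after their values were seen. The member genes, lists and markers were chosen with earlier results of these data known. Gene names are those of the array files. RefSeq tables (GRCm38.p6) gave the microRNA and promoter sequences. The deposited table of values was not used, since its row identifiers matched no probe column.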

Additional observations from a re-analysis of the deposited data

How the results depend on the processing

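Each result was recomputed under each alternative. Processed signals replace both background correction and dye normalisation, and without loess each array was centred on its median instead. The members past 1.5-fold stayed at 0 higher and 0 lower with the scanner's processed signals, an offset of 16, scaling between arrays, no filter on dim probes, saturated probes left out and the stricter rule. Without loess 0 were higher and 2 lower, the median of the members was -0.32, and those of the relatives, the brakes and the other induced genes were -0.45, -0.49 and -0.28. From array 2 alone 5 of 17 member probes were higher and 1 lower past 1.5-fold, against 1430 and 315 of all 25787 measured probes. From array 1 alone the members' counts were 0 and 0, against 123 and 358 of all. The median of the members was -0.18 from array 1 and 0.17 from array 2. The list medians were -0.14 and -0.067 for relatives, -0.017 and -0.22 for brakes and -0.11 and 0.23 for other induced genes. Over all 25787 measured probes, 184 were higher and 111 lower past 1.5-fold. These counts became 305 and 263 with processed signals, 10 and 1131 without loess and 4 and 20 under the stricter rule. From single arrays they were 123 and 358 (array 1) and 1430 and 315 (array 2). The median of all probes was -0.0068 with processed signals, -0.0072 with offset 16, -0.0015 without saturated probes, -0.18 without loess, and -0.0057 and -0.0037 on arrays 1 and 2. Single members changed sign in 1 case with processed signals (Pim1 A_52_P535619), in 1 with scaling (Il4i1) and in 7 without loess. The causes were not tested. No paired analysis was possible because there is 1 pair of RNAs. The deposited table of values was not run.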
